A study of Homo sapiens with 30 samples.

Results

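The early response to sorafenib was read in HepG2 cells carrying an inhibitor of miR-200c-3p, from 6 of the 30 libraries of the series, all 6 libraries of that transfection. The 3 libraries of the I200c_sorafenib group were set against the 3 of the I200c_DMSO group, and members were chosen by these sample labels alone. HepG2 is an established human hepatoblastoma line widely used as a model of liver cancer cells. Cells of both groups were transfected with a miRCURY LNA antisense inhibitor of miR-200c-3p, so that the DMSO libraries also carried the inhibitor. They received sorafenib at 10 µM, or its solvent dimethyl sulfoxide (DMSO), 24 h after transfection, and were lysed 6 h later. A second pair of groups of 3 libraries, IC_DMSO and IC_sorafenib, carried a control inhibitor in place of the miR-200c-3p inhibitor and was used for comparison. All libraries come from 1 cell line, and the replicates are called biological without a statement that they were separate cultures, so p-values measure the spread between these libraries.

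Sorafenib is an oral multikinase inhibitor given in advanced hepatocellular carcinoma. It blocks RAF kinases in the RAS to ERK cascade and the receptors of vascular endothelial and platelet-derived growth factors. Immediate early genes, ERK feedback phosphatases and growth factor genes are the usual transcriptional readouts of that cascade. miR-200c-3p belongs to the miR-200 family, known for its repression of the transcription factors ZEB1 and ZEB2 in epithelial cells. Messenger RNA was measured with 3′ QuantSeq libraries, which do not capture the mature miRNA itself. They were primed with oligo-dT on poly(A) tails, so the levels of other transcripts without such a tail are uncertain.

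The mature miRNA that the inhibitor is directed against is shown with its family, because members with the same seed share most of their targets. The seed, bases 2 to 8, is in capitals, and the sequences are those of RefSeq on GRCh38.p14. miR-200c-3p lies on the plus strand at chr12:6963742-6963764. miR-200b-3p and miR-429 carry the same seed, whereas miR-141-3p and miR-200a-3p share another.
hsa-miR-200c-3p: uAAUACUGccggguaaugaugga
hsa-miR-200b-3p: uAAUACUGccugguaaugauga
hsa-miR-429: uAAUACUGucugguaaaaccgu
hsa-miR-141-3p: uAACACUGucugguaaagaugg
hsa-miR-200a-3p: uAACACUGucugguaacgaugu

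The 6 libraries held 6358415 to 9657063 counts each. Levels are given as CPM, counts scaled to a library of 1000000. With 3 counts as the upper limit of an undetected gene, a count of 0 leaves room for 0.313 to 0.461 CPM, which covers counting error only. In bulk RNA a change in level per cell and a change in the share of cells cannot be told apart. Replicate 2 of I200c_DMSO stood apart from the other libraries of the transfection. It took 26.8% of its counts from mitochondrial genes, against 18.2% to 20% in the other 5, and its log-scaled levels correlated with those of the other DMSO replicates at 0.948 and 0.947, against 0.961 between those replicates. Results are therefore given with and without it. The 12 markers of hepatocytes and HepG2 were all detected, with a summed level of 11900 to 12900 CPM in DMSO and 12400 to 14100 CPM with sorafenib. Of the markers of other cells, VWF and KDR of endothelium, PTPRC and CD3E of leukocytes, COL1A2, DCN and LUM of fibroblasts and CFTR of cholangiocytes were at 0 in all 6 libraries. The 4 leukocyte markers summed to 155 to 247 CPM in DMSO and 161 to 197 CPM with sorafenib, nearly all from LYZ (155 to 245 CPM). The 4 cholangiocyte markers summed to 549 to 721 CPM and 579 to 650 CPM, from KRT19 (373 to 481 CPM) and SOX9 (149 to 249 CPM). The 6 fibroblast markers summed to 4.26 to 8.87 CPM and 0.828 to 2.76 CPM, and the 4 endothelial markers to at most 1.97 CPM. The marker levels in this paragraph are scaled by total counts, without TMM.

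After 6 h of sorafenib, 291 of 12738 genes tested were called at an adjusted p under 0.05 by the edgeR quasi-likelihood test (2.28% of genes tested). Of these, 116 were higher (0.911%) and 175 were lower (1.37%). The DMSO and sorafenib libraries did not overlap for 288 of the 291 genes, a separation that 17.2% of all genes tested showed. At least a 1-unit log2 change was seen for 176 genes, and the median change was 1.26 for the genes that rose and -1.08 for those that fell. Protein-coding genes made up 242 of the 291 calls, beside 11022 of the 12738 genes tested. Long noncoding RNAs numbered 24, of which 6 rose and 18 fell. How many of them were tested was not counted, so these numbers cannot be set beside the shares over all genes. An unadjusted p under 0.05 was found for 1945 genes. Counts of calls in the gene lists and classes below are to be read beside the shares of 2.28%, 0.911% and 1.37%.

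The count depended on single libraries. It fell to 144 without sorafenib replicate 1 and to 129 without sorafenib replicate 2, and it rose to 503 without DMSO replicate 2. A core of 89 genes, 44 higher and 45 lower, was called with all libraries and in each of the 6 fits that left out 1 library. All of these fits also used the IC libraries to estimate the spread.

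**Figure D1:**
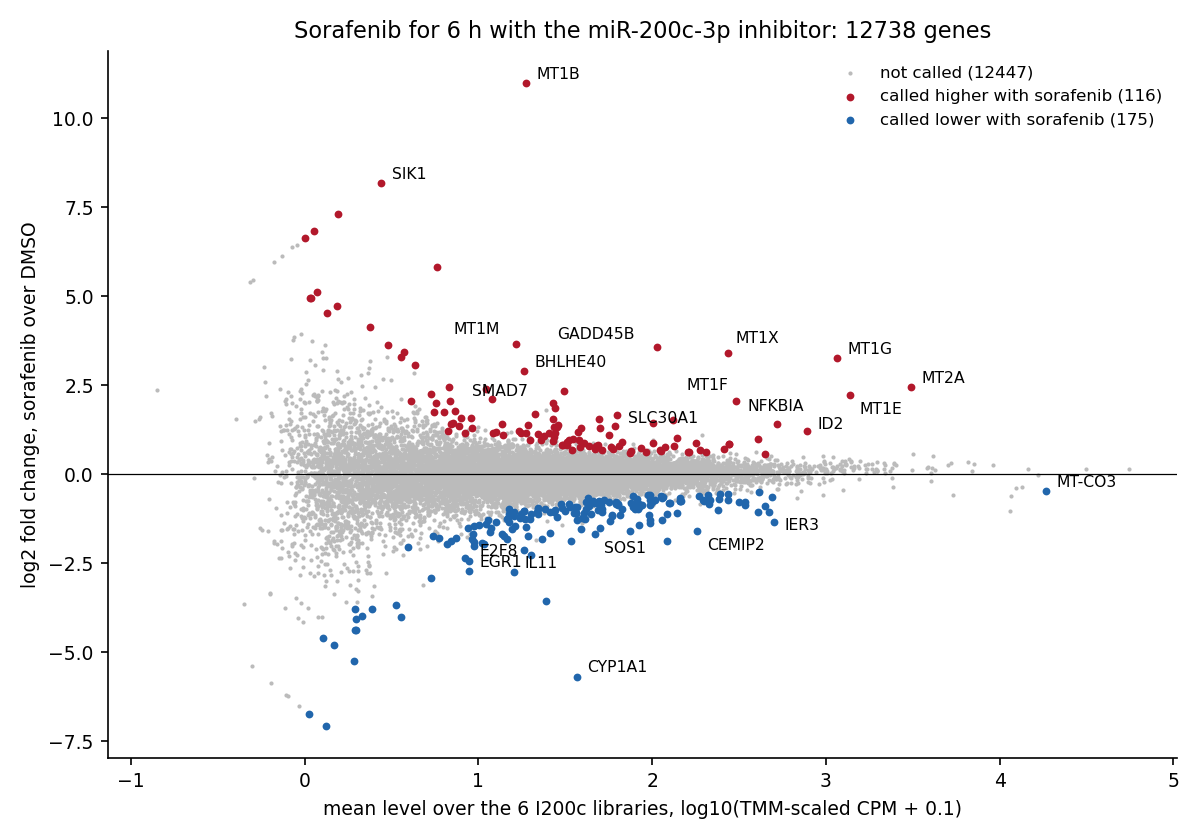
Change of each of the 12738 genes tested (log2 fold change of sorafenib over DMSO, vertical axis) against its mean level over the 6 I200c libraries (log10 of TMM-scaled CPM plus 0.1, horizontal axis). Red and blue points are the 116 higher and 175 lower calls, with MT2A, MT1E, MT1G and MT1X at the upper right and CYP1A1 the lowest labelled point. MT1B, SIK1 and the unlabelled H1-3 had no count in DMSO, so their fitted values are no measured folds.

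Metallothioneins, small cysteine-rich proteins that bind zinc and copper and are induced by metals through the factor MTF1, had the highest median change of the 48 gene lists examined. Of the 9 metallothionein genes tested, 8 were called higher and 0 lower, with a median log2 fold change of 3.25 beside 0.00457 over all genes tested. Their summed level was 1850, 1860 and 1840 CPM in the 3 DMSO libraries and 11200, 10500 and 10400 CPM in the 3 sorafenib libraries. Both groups were thus tight, including DMSO replicate 2, and they were far apart.

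MT2A, the most abundant member, lay at 952, 1020 and 931 CPM in DMSO and at 5480, 5240 and 5050 CPM with sorafenib, a 5.43-fold rise (log2 2.44 ± 0.21 SE, adjusted p = 8.59e-07, edgeR). MT1E went from 464, 469 and 521 CPM to 2120, 2270 and 2380 CPM (log2 2.22 ± 0.18). The 2 genes shared the lowest adjusted p of the comparison with ENSG00000261685, a locus without a symbol that fell from 40.1, 39.2 and 55.8 CPM to 3.59, 5.33 and 2.35 CPM. No DMSO library overlapped a sorafenib library for either metallothionein. MT1G rose 9.54-fold, from between 194 and 243 CPM in the 3 DMSO libraries to 2440, 1960 and 1890 CPM. MT1X rose 10.6-fold, from 46.9, 45.8 and 48.3 CPM to 651, 418 and 423 CPM. MT1F rose 4.19-fold, from 134, 114 and 105 CPM to 471, 473 and 531 CPM. For each of the 5 metallothioneins in this paragraph the lowest sorafenib value was above the highest DMSO value, which the rule that named them required.

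Among the less abundant members, MT1M rose from 2.15, 2.81 and 2.21 CPM to 23, 26.3 and 42.2 CPM, and MT1A rose from 8.3, 13.5 and 10.1 CPM to 28.6, 25.1 and 29.7 CPM. MT1B had no count in any DMSO library and stood at 30.1, 35.8 and 46.9 CPM with sorafenib, at least 81.6-fold higher than the limit that a count of 0 allows over the DMSO group. MT1H reached 1.97, 1.57 and 2.97 CPM from 0, 0 and 0.581 CPM and was not called (adjusted p = 0.163). All 8 calls were kept in each fit without 1 library. Metallothionein genes are near-identical copies, so the split of reads among them is uncertain.

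The 9 genes lie together at chr16:56608584-56684196 (GRCh38). Within 200 kb on either side, 5 other genes were tested and 0 were called, with log2 fold changes between -0.22 and 0.64. Among zinc transporters, SLC30A1, the plasma membrane zinc exporter and another known target of MTF1, was the 1 member of 17 called, and it was higher. It measured 26, 29 and 35.1 CPM in DMSO and 78, 80.1 and 130 CPM with sorafenib (log2 1.67 ± 0.24, adjusted p = 0.000486).

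Promoters of the called metallothioneins found in the RefSeq table (3 of 8) are shown as the 250 bases before the gene start, because the family moved together. Capitals mark the metal response element core, TGCACNC or TGCGCNC, on either strand, and none of the marked cores overlapped the other motifs searched. MT2A (chr16:56608334-56608583, plus strand) held 7, MT1X (chr16:56682220-56682469, plus strand) 4 and MT1B (chr16:56651636-56651885, plus strand) 3. At least 1 such core was found in 24.8% of 35116 promoters of that length and 3 or more in 1.58%.
MT2A: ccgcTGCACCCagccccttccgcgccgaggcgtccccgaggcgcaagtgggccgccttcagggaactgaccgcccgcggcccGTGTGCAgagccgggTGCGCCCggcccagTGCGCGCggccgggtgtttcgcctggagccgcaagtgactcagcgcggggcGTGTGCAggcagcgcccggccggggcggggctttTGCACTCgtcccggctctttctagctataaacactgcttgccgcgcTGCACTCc
MT1X: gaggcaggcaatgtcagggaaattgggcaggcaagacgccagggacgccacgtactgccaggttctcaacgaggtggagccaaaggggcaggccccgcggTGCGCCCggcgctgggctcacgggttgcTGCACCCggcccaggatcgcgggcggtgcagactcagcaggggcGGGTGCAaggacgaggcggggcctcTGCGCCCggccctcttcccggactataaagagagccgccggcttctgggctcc
MT1B: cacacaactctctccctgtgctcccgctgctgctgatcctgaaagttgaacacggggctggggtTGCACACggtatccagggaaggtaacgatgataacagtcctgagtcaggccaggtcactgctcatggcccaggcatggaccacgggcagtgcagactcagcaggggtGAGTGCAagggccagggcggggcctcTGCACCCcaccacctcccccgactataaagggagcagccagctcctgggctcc
The promoter of SLC30A1 held 1 core, and that of the uncalled MT1H held 8. These are matches of letters and not measured binding.

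**Figure D2:**
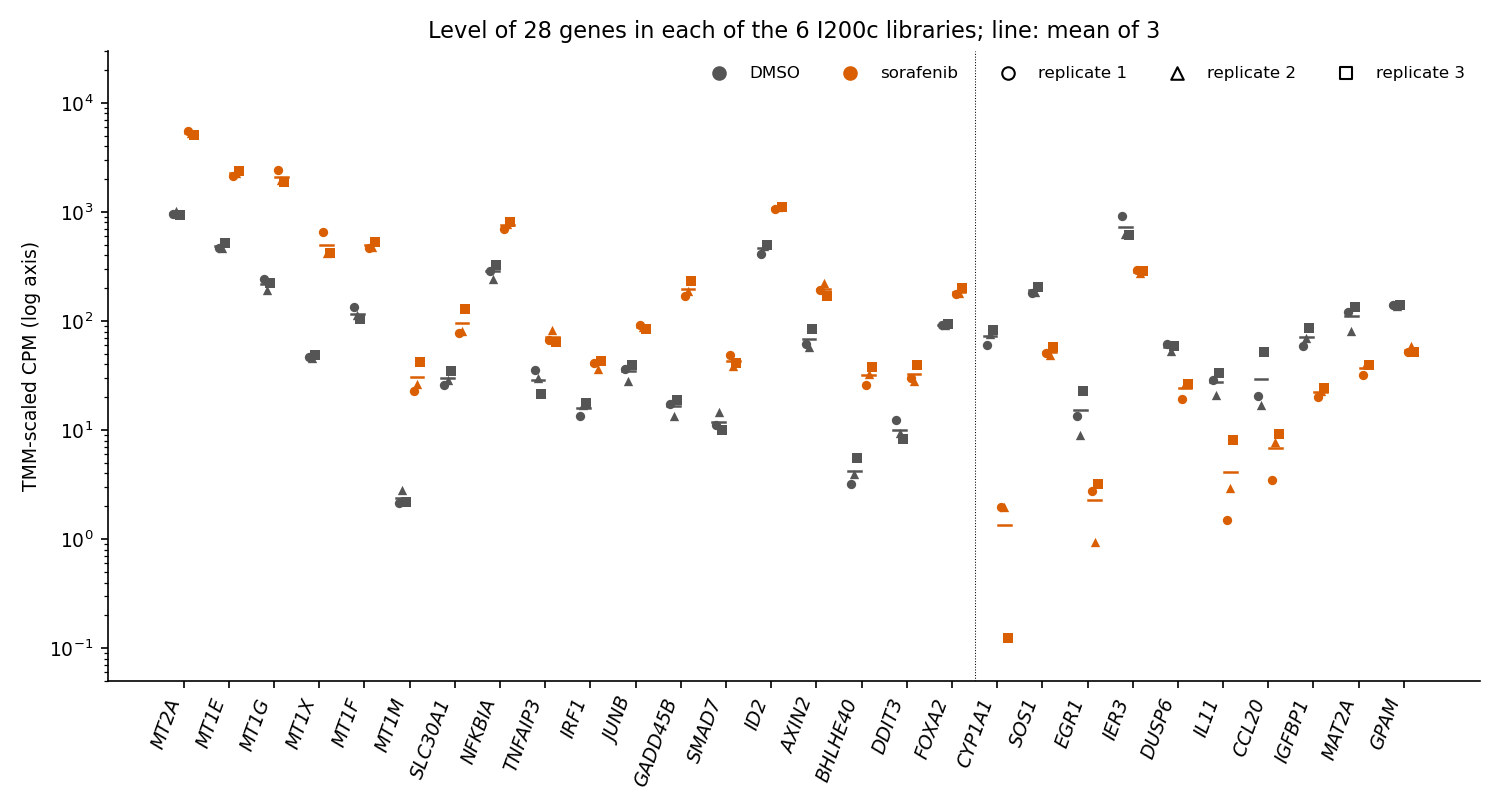
Level of 28 genes in each of the 6 I200c libraries (TMM-scaled CPM on a log axis), grey for DMSO and orange for sorafenib, with 1 marker shape for each replicate number and a line at the mean of 3. Genes left of the dotted line were called higher and those right of it lower. The groups do not overlap for any gene drawn, which was required of genes named for the size or p of their change.

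CYP1A1 (chr15:74719542-74725536, minus strand), the xenobiotic-metabolising cytochrome P450 induced by the aryl hydrocarbon receptor, showed the deepest fall among genes with at least 10 CPM. Its level was 60, 75.3 and 82.3 CPM in DMSO and 1.97, 1.98 and 0.124 CPM with sorafenib, 51.5-fold lower (log2 -5.69 ± 0.53, adjusted p = 2.1e-06). Leaving out any 1 library kept this call. It was the 1 call among 6 tested genes of the receptor's list, which also holds the receptor gene AHR and that of its partner ARNT. TIPARP, another target, had a log2 fold change of 0.72 and NQO1 of -0.16, and neither was called (adjusted p = 0.224 and 0.61). These and the other uncalled members given with values were named after their values were seen, except where a list held no call.

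Genes of the kinase cascade that sorafenib blocks were mixed. SOS1 (chr2:38962206-39124345, minus strand), the exchange factor that loads RAS with GTP, fell from 182, 186 and 205 CPM to 50.5, 49.2 and 57.7 CPM (log2 -1.86 ± 0.19, adjusted p = 7.83e-06). ERBB3, a receptor of the EGF family, had a log2 fold change of -0.57 and was called in 1 of the 6 fits that left out 1 library (adjusted p up to 0.164, without sorafenib replicate 2). These were the 2 calls among 31 RAS to ERK components tested, beside 2.28% of all genes tested, and the list had a median of -0.0447. ERK feedback genes had a median of -0.637 over 21 tested, 16 of them below 0. DUSP6, the phosphatase that removes phosphate from ERK, fell from 62, 53.4 and 59.4 CPM to 19.3, 26.5 and 26.7 CPM. AREG, the EGF receptor ligand amphiregulin, fell from 96.7, 121 and 100 CPM to 57.6, 55.5 and 47.6 CPM. Both calls were kept without each library in turn. The related ligand EREG, which is not in the list and was named after its values were seen, fell by 1.72 on the log2 scale (adjusted p = 0.0118), a call lost in 3 of those fits (up to 0.0749, without DMSO replicate 3). Members not called included DUSP5 (log2 -2.23, adjusted p = 0.0787), SPRY4 (-0.66, 0.519) and CCND1 (-0.20, 0.555).

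Immediate early genes went both ways, with 2 of 22 called higher and 6 lower, beside 0.911% and 1.37% of all genes tested. FOSL1 was not called (log2 -1.45, adjusted p = 0.087). EGR1, a zinc finger factor driven by serum response factor, fell 6.6-fold, from 13.4, 9.08 and 23 CPM to 2.78, 0.94 and 3.22 CPM (adjusted p = 0.00547). IER3, a stress-inducible survival gene and the most abundant of the 6, fell from 922, 624 and 618 CPM to 292, 273 and 287 CPM. The groups stayed apart for both genes in spite of the spread in DMSO. KLF6 (log2 -0.76), MCL1 (-1.02), BTG2 (-2.02) and JUND (-0.69) were also called lower, but their calls were lost in 2 to 4 of the 6 fits that left out 1 library, with the highest adjusted p of 0.164 for JUND without DMSO replicate 1. In contrast, JUNB rose from 36.3, 27.9 and 39.4 CPM to 91.4, 87.9 and 84.2 CPM. JUN rose from 117, 110 and 153 CPM to 191, 233 and 273 CPM, and its call was lost in 2 such fits (highest adjusted p = 0.052, without sorafenib replicate 2).

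The promoter of EGR1 (chr5:138465229-138465478, plus strand, GRCh38.p14) is shown because it holds 2 matches to the CArG box, the element bound by serum response factor, in capitals. Such a match was found in 1.16% of promoters, and 2 or more in 0.0313%. A window of SRF also held 2, and that of CYP1A1 held 1.
EGR1: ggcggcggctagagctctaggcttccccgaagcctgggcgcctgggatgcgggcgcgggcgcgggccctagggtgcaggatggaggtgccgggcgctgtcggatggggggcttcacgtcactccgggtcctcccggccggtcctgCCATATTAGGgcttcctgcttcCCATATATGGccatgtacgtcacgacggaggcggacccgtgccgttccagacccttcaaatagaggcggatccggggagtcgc
The gene of the factor itself, SRF, fell from 531, 345 and 445 CPM to 206, 199 and 324 CPM (adjusted p = 0.0243), and ACTB, the cytoskeletal actin gene regulated by it, fell from 535, 642 and 623 CPM to 318, 414 and 418 CPM (adjusted p = 0.0196). The actin-binding profilin gene PFN1 fell by 0.88 on the log2 scale (adjusted p = 0.0447). These 3 genes were named after their values were seen. Their calls were lost in 3 or 4 of the 6 fits without 1 library, with adjusted p up to 0.177 for PFN1 without sorafenib replicate 1. In IC the log2 fold changes were -0.35 for SRF, -0.02 for ACTB and -0.11 for PFN1, none of them called. The DMSO means of SRF, ACTB and PFN1 were 440, 600 and 576 CPM in I200c and 324, 498 and 363 CPM in IC.

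NFKBIA and TNFAIP3, feedback inhibitors of NF-kappa-B, rose. Of 19 NF-kappa-B and inflammatory genes tested, 4 were called higher and 1 lower, beside 0.911% and 1.37% of all genes tested. NFKBIA, which encodes the inhibitor that holds NF-kappa-B in the cytoplasm, went from 288, 241 and 326 CPM to 697, 778 and 807 CPM (log2 1.41 ± 0.18, adjusted p = 0.000129). TNFAIP3, the ubiquitin-editing brake A20, went from 35.2, 30 and 21.6 CPM to 66.7, 82.8 and 64.6 CPM. IRF1, an interferon response factor, went from 13.5, 17 and 17.8 CPM to 41.2, 36.6 and 42.7 CPM. These 3 calls were kept in each fit without 1 library. The kinase gene PIM3 was called higher too (log2 0.84, lost in 2 fits), and the chemokine gene CCL20 was called lower (log2 -2.13). The CCL20 call was lost in 3 of the 6 fits, with an adjusted p of 0.159 without DMSO replicate 3, whose level of 51.6 CPM was the highest of 20.5, 17.1 and 51.6 CPM. IL11, a cytokine of the interleukin-6 family outside the list, fell from 28.6, 21 and 33.5 CPM to 1.5, 2.92 and 8.05 CPM.

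NFKBIA, TNFAIP3 and IRF1 each held at least 1 kappa-B site in the same promoter window, a match found in 5.21% of promoters. One of the SRF windows, of a gene that fell, held 1 as well. The windows of PIM3 and CCL20, the other called members of the list, were not looked up. Whether the site goes with the direction of change was not tested. The window of NFKBIA (chr14:35404750-35404999, minus strand) is shown with its 1 match in capitals.
NFKBIA: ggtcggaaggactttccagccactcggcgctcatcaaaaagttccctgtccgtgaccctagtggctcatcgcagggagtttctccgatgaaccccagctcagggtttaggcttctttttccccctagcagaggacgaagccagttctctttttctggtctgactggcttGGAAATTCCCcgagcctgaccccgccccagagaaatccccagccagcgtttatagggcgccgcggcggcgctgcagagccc

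**Figure D3:**
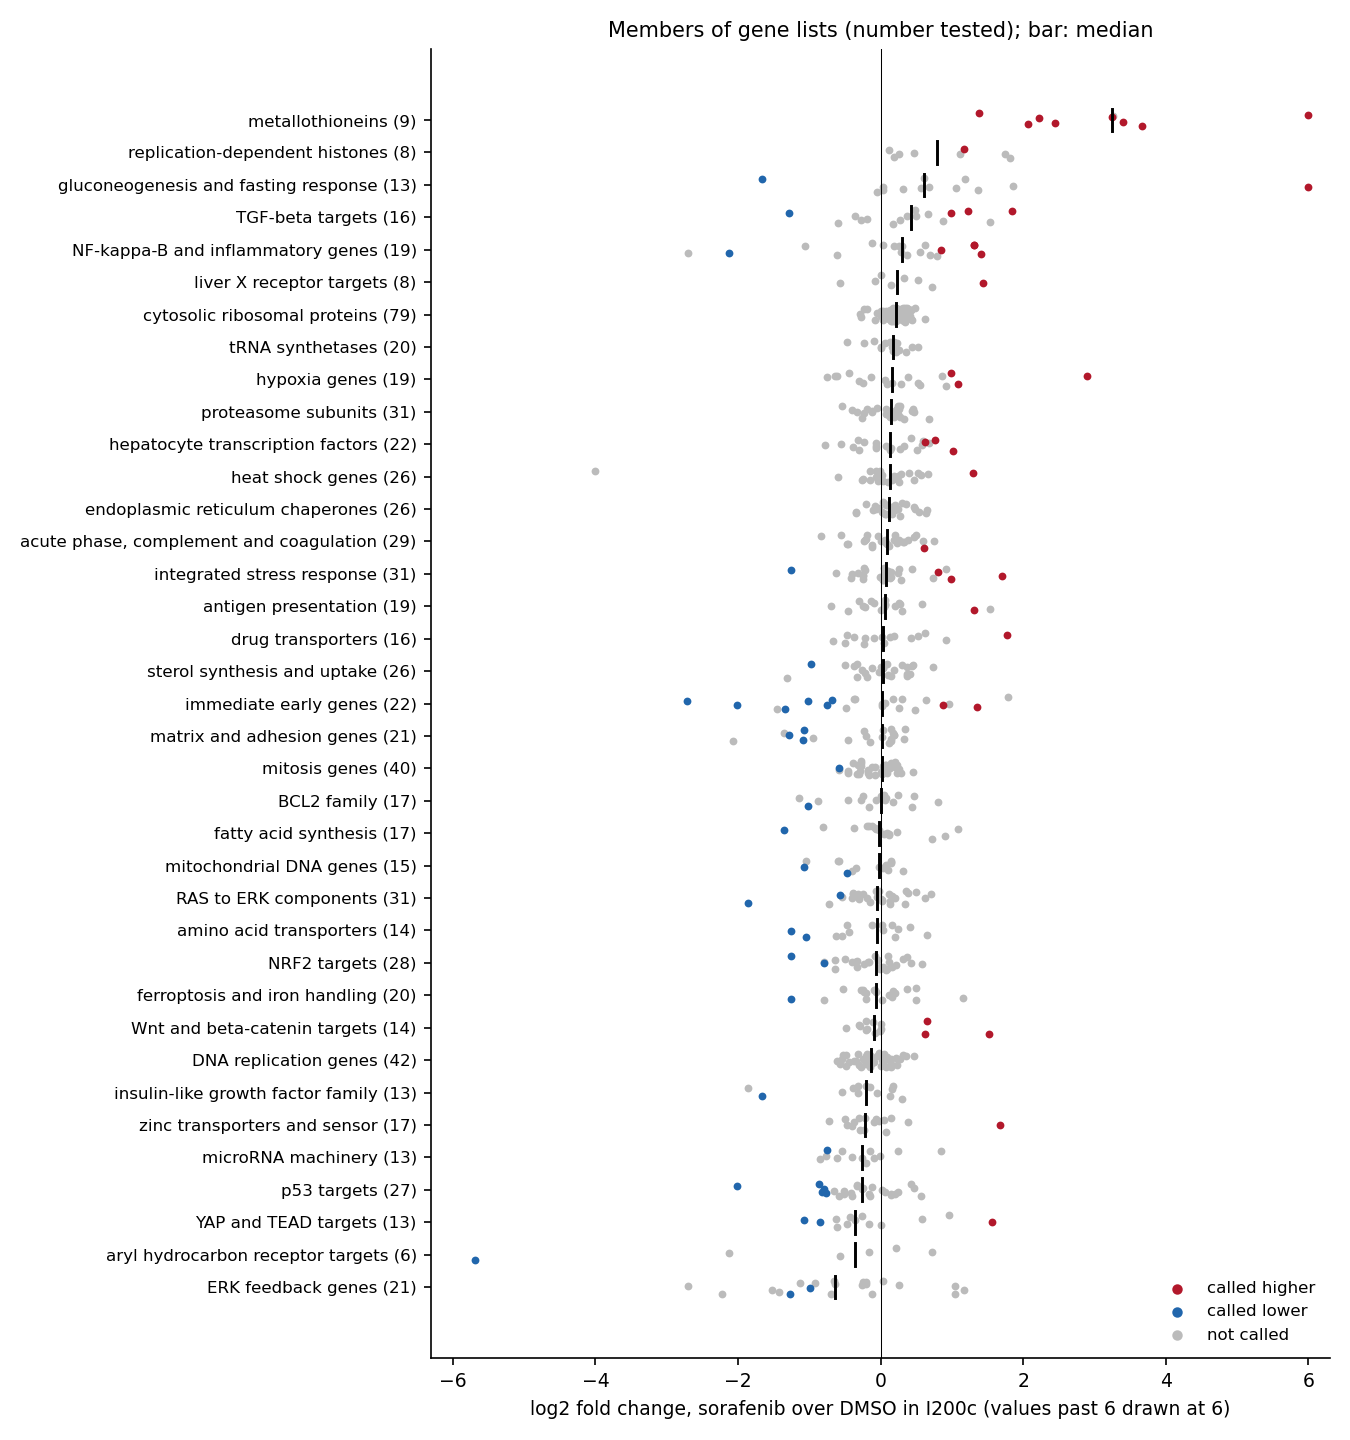
Log2 fold change of every tested member of the 32 gene lists that held a call and of 5 lists without one, ordered by median (black bar), with the number tested in brackets. Red and blue points are members called higher and lower, and grey points were not called. Metallothioneins have the highest median (3.25) and ERK feedback genes the lowest (-0.637).

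Targets of transforming growth factor beta had 3 of 16 called higher and 1 lower, beside 0.911% and 1.37% of all genes tested. SMAD7, the inhibitory SMAD, rose 3.61-fold, from 11.1, 14.7 and 10 CPM to 48.8, 39 and 41.5 CPM. ID2, an inhibitor of basic helix-loop-helix factors, rose from 414, 483 and 500 CPM to 1070, 1100 and 1100 CPM. ID3, of the same family, rose from 268, 202 and 349 CPM to 480, 495 and 645 CPM. All 3 rises were called in every fit without 1 library. The receptor genes TGFBR1 and TGFBR2, outside the list and named after their values were seen, fell by 1.38 and 1.03 on the log2 scale (adjusted p = 0.0279 and 0.023). Their calls were lost in 3 and 4 fits, with adjusted p up to 0.137 and 0.124 without sorafenib replicate 2.

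AXIN2, RNF43 and TBX3 were the 3 of 14 Wnt and beta-catenin targets called higher, while the median of the 14 was -0.0909. Over all genes tested, 0.911% were called higher and 1.37% lower. AXIN2, a scaffold of the complex that degrades beta-catenin, went from 61.4, 57.4 and 84.6 CPM to 191, 223 and 171 CPM. FZD4, a receptor of Wnt ligands, fell from 147, 130 and 136 CPM to 62.5, 45.1 and 63.3 CPM. Among 13 YAP and TEAD targets, ANKRD1 (log2 -1.07) and CRIM1 (-0.84) were called lower and the kinase gene NUAK2 (1.56) higher. Among 21 matrix and adhesion genes, 3 were called lower, ITGA2 (-1.08) and THBS1 (-1.09) among them, and 0 higher. The calls of RNF43, TBX3, CRIM1, ITGA2 and THBS1 were lost in 1 to 5 of the fits without 1 library (highest adjusted p = 0.235, for RNF43 without sorafenib replicate 1).

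DDIT3, which encodes the pro-apoptotic factor CHOP, rose from 12.5, 9.33 and 8.25 CPM to 29.8, 28.1 and 39.3 CPM (log2 1.70 ± 0.25, adjusted p = 0.000627). DDIT4, an inhibitor of mTORC1 that was also counted among hypoxia genes, rose from 20.8, 24.9 and 24.6 CPM to 42.9, 48.1 and 48.5 CPM. NUPR1, a stress-induced chromatin protein, rose by 0.80 on the log2 scale. With SLC7A11, the cystine transporter, which was lower (log2 -1.25), these made 4 calls among 31 genes of the integrated stress response. The call of NUPR1 was lost without sorafenib replicate 1 (adjusted p = 0.0744), and that of SLC7A11 in 5 of the 6 fits (up to 0.16, without the same library). ATF3 (0.06), ASNS (0.03) and TRIB3 (-0.62) were not called. Of 26 endoplasmic reticulum chaperones 0 were called, with HSPA5 at 948, 805 and 822 CPM in DMSO and 972, 1140 and 1180 CPM with sorafenib (adjusted p = 0.177). At the share of 2.28% called over all genes tested, a list of 26 may hold none. GADD45B, a stress-inducible activator of p38 and JNK signalling that belonged to no list, rose 11.9-fold, from 17.4, 13.4 and 18.7 CPM to 171, 187 and 233 CPM. BHLHE40, a clock and hypoxia-responsive repressor, rose from 3.23, 3.96 and 5.58 CPM to 25.7, 32.8 and 37.6 CPM.

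p53 targets had 5 of 27 called lower and 0 higher, beside 1.37% and 0.911% of all genes tested, with a median of -0.261. MDM2, which encodes the ubiquitin ligase of p53, fell from 273, 280 and 264 CPM to 154, 134 and 173 CPM and was called in each fit without 1 library. CDKN1A, the cell cycle inhibitor p21, fell from 137, 164 and 185 CPM to 107, 86.6 and 85.9 CPM. The death receptor gene TNFRSF10B (log2 -0.86), ZMAT3 (-0.77) and BTG2 completed the 5. The calls of these 4 were lost in 2 to 4 of the fits, with adjusted p up to 0.164 for ZMAT3 without sorafenib replicate 1. Of 42 DNA replication genes 0 were called, and of 40 mitosis genes CDCA8 alone (log2 -0.58), a call lost in 5 of the fits (up to 0.149, without sorafenib replicate 2). E2F8, a repressor of the E2F family, fell from 10.6, 20.6 and 13 CPM to 2.54, 3.03 and 2.6 CPM.

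Metabolic genes that fell included enzymes of separate pathways. MAT2A, which makes S-adenosylmethionine, fell from 121, 81.7 and 133 CPM to 31.9, 40 and 39.6 CPM. GPAM, the first enzyme of glycerolipid synthesis, fell from 140, 138 and 141 CPM to 51.7, 59.2 and 52 CPM. SLC23A2, a vitamin C transporter, fell from 135, 109 and 122 CPM to 39.1, 39.8 and 56.3 CPM. IGFBP1, a hepatic binding protein of insulin-like growth factors, fell from 58.6, 69.3 and 86.9 CPM to 20.2, 22.7 and 24.5 CPM. These 4 calls were kept in each fit that left out 1 library. TXNRD1 and SLC7A11 were the 2 calls among 28 NRF2 targets. SLC38A2, an amino acid transporter, fell by 1.05 on the log2 scale. The calls of TXNRD1 and SLC38A2 were lost in 4 and 2 of the fits (highest adjusted p = 0.0951, for TXNRD1 without DMSO replicate 3). SIK1, a kinase of the fasting response, had no count in DMSO and 8.1, 5.54 and 2.35 CPM with sorafenib, at least 11.6-fold higher, although it has a near-identical copy and its level is therefore uncertain.

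ALB lay at 2420, 3390 and 3140 CPM in DMSO and 3030, 3310 and 3410 CPM with sorafenib, and AFP at 1840, 1610 and 2110 CPM and 1560, 1920 and 2360 CPM. Neither was called (adjusted p = 0.708 and 0.865). Of 22 hepatocyte transcription factors, 3 were called higher, where 0.911% of all genes tested were. FOXA2, a pioneer factor of liver development, rose from 91.8, 91.1 and 92.9 CPM to 177, 181 and 199 CPM, while TBX3 had a log2 fold change of 0.63 and NR2F2 of 0.77. The NR2F2 call was lost in 4 of the fits (up to 0.152, without DMSO replicate 1). No call was made among 13 apolipoproteins, 15 drug metabolism enzymes, 16 oncofetal markers, 22 glycolysis genes, 29 autophagy genes, 31 proteasome subunits, 42 respiratory chain subunits and 30 ribosome biogenesis genes. At the share of 2.28% called over all genes tested, lists of such sizes may hold none. Of the 79 cytosolic ribosomal proteins 0 were called, while 73 had a value above 0 and their median was 0.219.

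Other large changes with at least 10 CPM in the higher group were seen in genes outside the lists. Among the rises, C5orf34 (log2 2.45), the choline transporter-like gene SLC44A2 (2.39) and LRP5L (2.10) were kept in each fit without 1 library, whereas the zinc finger gene ZNF433 (2.05) was lost in 2. Among the falls, the nuclear envelope gene SYNE3 (-1.94), the ubiquitin ligase gene TRIM25 (-1.31) and the mitochondrial transfer RNA MT-TY (-1.81) were kept in each. The glycosyltransferase gene GCNT4 (-2.35), KRCC1 (-1.97), the noncoding BCAN-AS1 (-1.96), ZCCHC24 (-1.89) and the tensin gene TNS4 (-1.88) were lost in 1 to 3 fits, and the small nucleolar RNA SNORA12 (-1.87) in 5 (adjusted p up to 0.148, without sorafenib replicate 1).

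HSPA1B, an inducible HSP70 gene and the 1 call among 26 heat shock genes, rose from 17.5, 21 and 29.1 CPM to 59, 55.9 and 50.5 CPM, while its near-identical copy HSPA1A had a log2 fold change of 0.03, and the split of reads between the copies is uncertain. Genes of other lists also called higher were the sterol exporter gene ABCG8 (log2 1.44), the anion transporter gene SLC22A7 (1.78) and the anticoagulant gene PROC (0.60), each lost in at least 2 of the 6 fits.

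Of 15 mitochondrial DNA genes, MT-CO3, a subunit of cytochrome c oxidase, fell from 22100, 20200 and 22400 CPM to 14900, 15700 and 16100 CPM (log2 -0.47, adjusted p = 0.0364), and MT-ND6, of complex I, fell from 207, 249 and 113 CPM to 62.6, 124 and 83.5 CPM, with overlap between the groups. The MT-CO3 call was lost in 5 of the fits (up to 0.138, without sorafenib replicate 1) and that of MT-ND6 in 4 (up to 0.105, without the same library). The mitochondrial share of counts was highest in DMSO replicate 2, as given above, and its part in these results was not tested, but MT-CO3 was also lower without that library (-0.50, adjusted p = 0.0144), and MT-ND6 was then not called (-0.82, 0.0551).

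Both groups carried the inhibitor, so its own effect is not read here. Of 13 reported miR-200c-3p targets tested 0 were called, with a median of -0.0457. ZEB1 lay at 30.1, 36.7 and 30.2 CPM in DMSO and 34.2, 32.8 and 28 CPM with sorafenib (log2 -0.03 ± 0.25, adjusted p = 0.968). ZEB2 did not pass the filter on low counts. TNRC6A, an effector of miRNA silencing, was the 1 call among 13 genes of the miRNA machinery (log2 -0.75, adjusted p = 0.00614). Of 14 epithelial and mesenchymal genes 0 were called. At the share of 2.28% called over all genes tested, lists of 13 or 14 genes may hold none.

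Sorafenib was also compared with DMSO under the control inhibitor, to ask how much of the response was seen without the miR-200c-3p inhibitor. In IC, 5 genes were called (0.0393% of genes tested), and all 5 were also called in I200c with the same sign: MT2A, MT1E, MT1F, MT1X and SOS1. The counts of 291 and 5 rest on 1 spread shared by both transfections. With each transfection fitted alone, the calls were 113 in I200c and 0 in IC. Of the 291 genes called in I200c, 279 had the same sign in IC (95.9%, beside 64.5% of all genes tested), and 152 of them had an unadjusted p under 0.05 there. None of the 12 genes of opposite sign did. The medians in IC were 0.548 for genes that rose in I200c and -0.479 for those that fell, but the genes were selected for their size in I200c. Taken from the other side, the 200 genes with an unadjusted p under 0.05 and a rise in IC had medians of 0.703 in IC and 0.666 in I200c, and the 281 that fell had medians of -0.659 and -0.664. These genes were in turn selected for their p in IC, so their medians do not show responses of equal size.

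No gene differed between the transfections in the size of its response at the threshold. The interaction of sorafenib with the inhibitor gave 0 calls (0% of genes tested) by edgeR, with a lowest adjusted p of 0.117, for ENSG00000261685 (log2 difference -2.37), and 413 genes at an unadjusted p under 0.05, and DESeq2 gave 4. A miss of the threshold does not show that the responses were alike. The difference was -3.40 on the log2 scale for CYP1A1 (adjusted p = 0.291), 1.16 for MT2A (0.679) and 2.01 for GADD45B (0.673). CYP1A1 fell by 2.29 on the log2 scale in IC, where its levels were 47.4, 33.7 and 70.8 CPM in DMSO and 12.6, 15.7 and 3 CPM with sorafenib (adjusted p = 0.0564). Without replicate 3 of IC_DMSO the interaction gave 8 calls.

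For the metallothionein sum, the transfections lay apart in DMSO. It was 9780, 8660 and 12800 CPM with sorafenib in IC, within reach of the 10400 to 11200 CPM of I200c. In DMSO it was 4230, 5920 and 2560 CPM in IC and 1840 to 1860 CPM in I200c, so that the DMSO levels were higher and more spread in IC. GADD45B showed the same order, with 52.3, 93.2 and 17.3 CPM in IC_DMSO and 159, 147 and 178 CPM in IC_sorafenib. For CYP1A1, which fell with sorafenib, IC_DMSO was also the DMSO group nearer to the sorafenib levels. Its means were 72.5 CPM (SD 11.4) in I200c_DMSO and 50.7 CPM (SD 18.8) in IC_DMSO. Unlike the metallothionein sum, its levels with sorafenib lay apart too, with means of 1.36 CPM in I200c_sorafenib and 10.5 CPM in IC_sorafenib. The 2 DMSO groups were not tested against each other, and the part of their difference in the interaction was not tested.

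**Figure D4:**
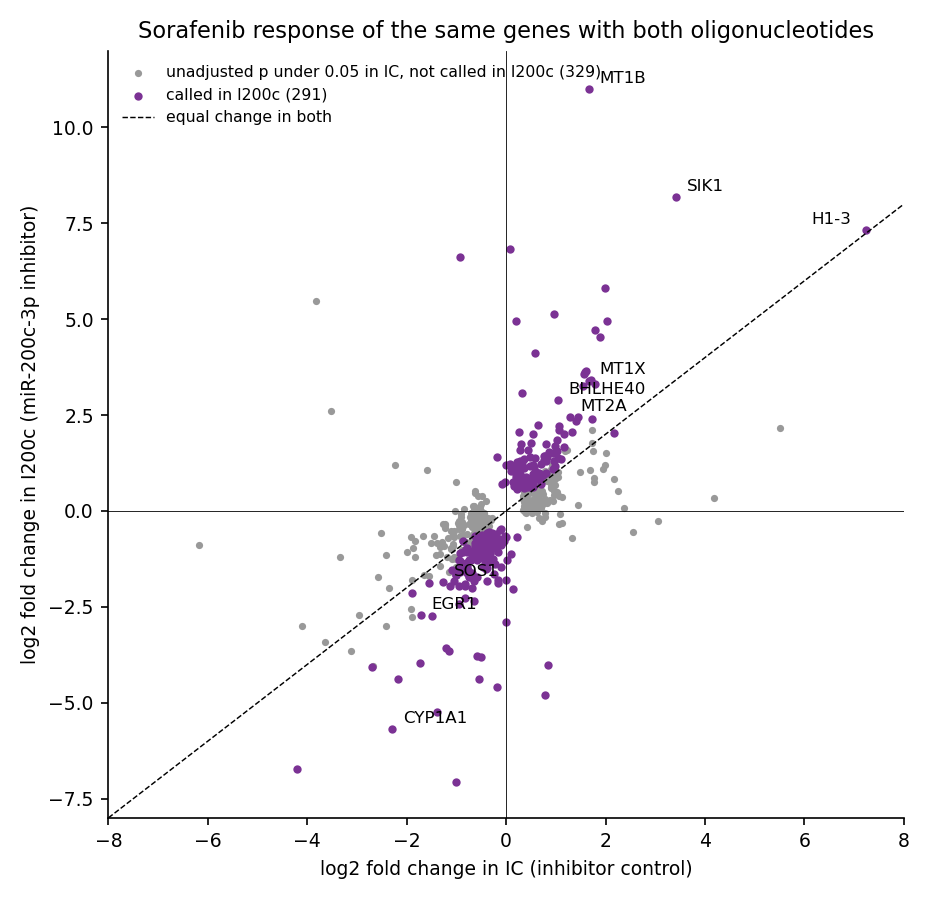
Log2 fold change of sorafenib over DMSO in IC (horizontal axis) and I200c (vertical axis) for the 291 genes called in I200c (purple) and for 329 others with an unadjusted p under 0.05 in IC (grey). The dashed line marks equal change. Purple points were selected on the vertical axis, and 279 of the 291 have the same sign on both axes.

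Without replicate 2 of I200c_DMSO, 503 of 13034 genes tested were called (3.86%), 249 higher (1.91%) and 254 lower (1.95%). Of the 291 genes called with all libraries, 242 stayed called (83.2% of these and 48.1% of the 503). None of the 291 changed sign, and 11 moved by more than 0.5 on the log2 scale. The share of calls that were higher went from 39.9% to 49.5%. The metallothionein calls remained 8 of 9, and the log2 fold changes of MT2A (2.50), MT1X (3.40), CYP1A1 (-5.64), SOS1 (-1.87), NFKBIA (1.32), ID2 (1.27) and DUSP6 (-1.31) were close to those with all libraries, all still called.

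Among the 49 genes lost, 22 had been higher and 27 lower. They included MT-ND6 (adjusted p = 0.0551), ADM (0.0724), RNF43 (0.0655), PROC (0.0573) and H2AC6 (0.0842), the 5 list members lost. Of the 261 genes gained, 155 were higher and 106 lower, and 196 had an unadjusted p under 0.05 with all libraries.

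Of the genes gained, HSP90AA1, the stress-inducible cytosolic chaperone HSP90, measured 2980, 4290 and 2940 CPM in DMSO and 4700, 4840 and 5160 CPM with sorafenib (log2 0.52, adjusted p = 0.0756 with all libraries, and 0.74, 0.0035 without replicate 2). HSPH1 and CHORDC1 were gained too, so that heat shock genes went from 1 of 26 called higher, HSPA1B, to 4. MT-RNR2, the mitochondrial large ribosomal RNA, was at 76600 CPM in DMSO replicate 2 and at 42300 and 39200 CPM in the other DMSO libraries, against 57100, 60400 and 56800 CPM with sorafenib, and its log2 fold change went from 0.14 to 0.53 (adjusted p = 0.014 without replicate 2). MALAT1, a nuclear long noncoding RNA, measured 2320, 3460 and 1900 CPM in DMSO and 3860, 3900 and 3590 CPM with sorafenib, and was called without replicate 2 (adjusted p = 0.00507) but not with all libraries (0.12). For HSP90AA1 and MALAT1, DMSO replicate 2 was the DMSO library nearest to the sorafenib libraries, and for MT-RNR2 it lay above them. These genes were named after their values were seen.

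ERK feedback genes went from 2 called lower to 5 lower and 1 higher: DUSP5 (log2 -2.52), PHLDA1 (-0.70) and EPHA2 (-1.63) were added below 0, and SPRY2 (1.82) above. Cytosolic ribosomal proteins went from 0 to 5 called higher, RPL19, RPL26, RPL32, RPL35 and RPL36A, at log2 fold changes of 0.44 to 0.71. The transcription factor HNF4A was called lower (-0.77), as were NR0B2 (-0.98) and ID1 (-0.80), whose levels in DMSO replicate 2 (158, 22.1 and 787 CPM) were the lowest of the 3. In IC, where 0.0393% of genes tested were called, HNF4A (log2 -0.22) and NR0B2 (-0.35) were not. With so few calls there, this does not show that their response differed between the transfections.

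**Figure D5:**
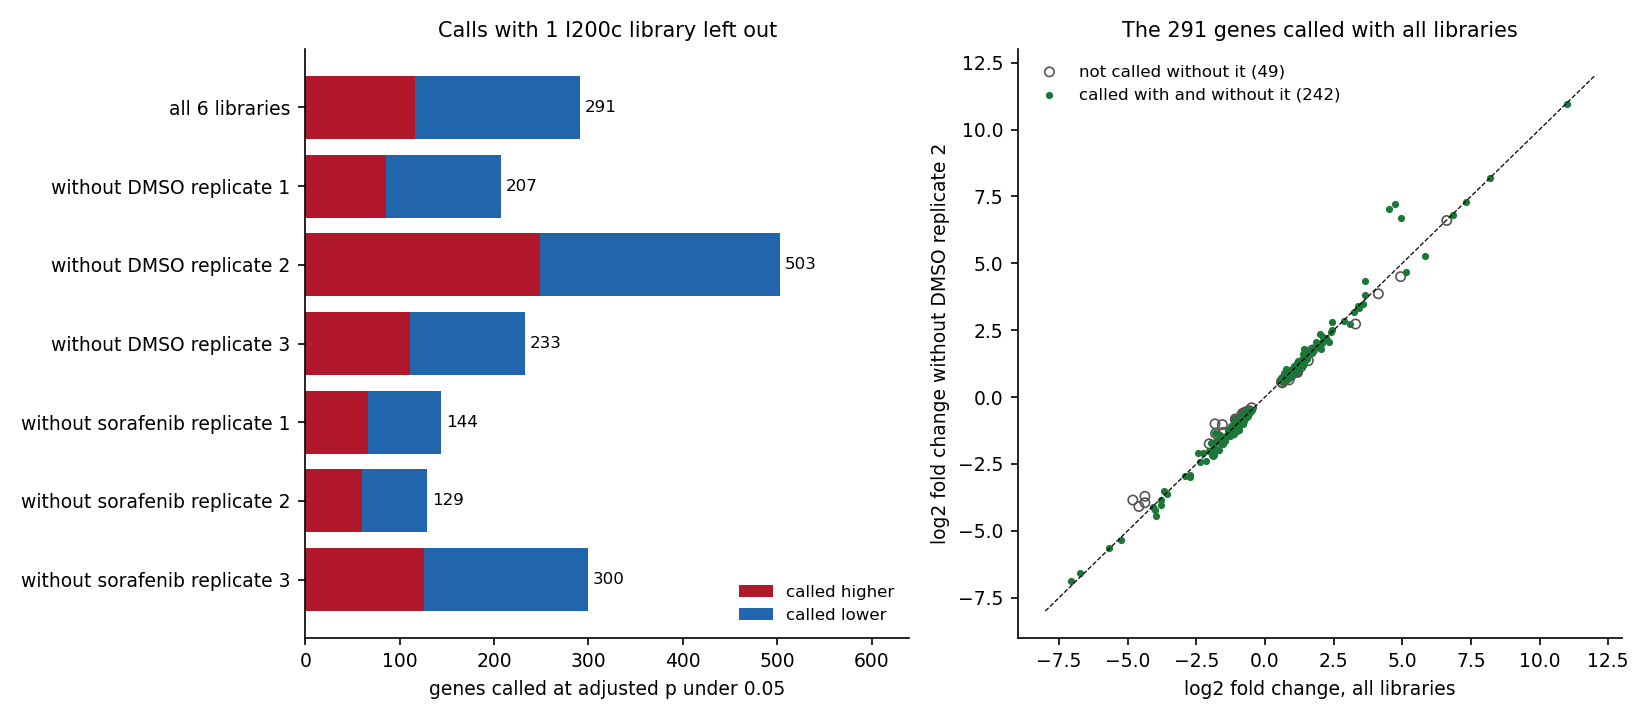
Left, number of genes called higher (red) and lower (blue) with all 6 I200c libraries (291) and with each left out in turn (129 to 503). Right, log2 fold change of the 291 genes with all libraries (horizontal axis) and without DMSO replicate 2 (vertical axis), filled where the call was kept (242) and open where it was lost (49), with a dashed line of equal change.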

How the data were processed

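HepG2 messenger RNA was sequenced by 3′ QuantSeq FWD. In the Bluebee pipeline the authors ran adapter trimming, STAR alignment to GRCh38 and HTSeq-count. The versions of these tools, the annotation, strand handling and molecular identifiers are not given in the sources used here. The deposited table holds raw counts per gene and library. A deposited table of normalised values was not used. The 92 lines that named no gene held 3 counts in all and were left out.

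The 12 libraries of 6 h were fitted together in edgeR 4.0.16 (R 4.3.3): counts were filtered with filterByExpr, scaled by the trimmed mean of M values (TMM), and tested with the quasi-likelihood F test, 1 coefficient per group, two-sided, with Benjamini-Hochberg adjustment. The fit had 8 residual degrees of freedom, and libraries of both transfections share 1 estimate of the spread. Within groups, the root mean square log2 difference between replicates was 0.55 to 0.696 in I200c and 0.403 to 0.552 in IC. The shared estimate takes both transfections as equally spread, and the part of this in the counts of calls was not tested. A gene was called at an adjusted p under 0.05. Levels are TMM-scaled CPM, and SE is the log2 fold change divided by the square root of F. The fit was tested on simulated data. Totals ranged from 3938764 to 9657063 counts over the 12 libraries. The 3-count limit covers counting error only, since PCR copies are not independent molecules.

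Named genes were the 15 largest rises and 15 largest falls among calls with separate groups and at least 10 CPM in the higher group, the 5 lowest p in each direction beyond these, called members of 48 gene lists (or the 4 most abundant members where none was called), ZEB1 and ZEB2. A few results that this rule names are not reported here. Others are marked as named after their values were seen. The comparison and the lists were chosen with earlier results of these data known. Gene symbols and positions came from GENCODE on GRCh38, and sequences from RefSeq tables. Same-numbered replicates of I200c_DMSO and I200c_sorafenib deviated from their group means with correlations of 0.0123, 0.0778 and 0.212, so the numbers were not taken to pair the libraries. Alternatives were median-ratio and total-count scaling, no filter, DESeq2 1.42.0, a replicate block, the 6 libraries of a transfection alone, and leaving out each library.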

Additional observations from a re-analysis of the deposited data

How the results depend on the processing

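The count of genes called in I200c, 291 (116 higher, 175 lower), was 288 with median-ratio scaling and 296 with total counts (100 higher, 196 lower). It was 519 with no filter (213 higher, 306 lower) and 541 by DESeq2 (225 higher, 316 lower). With the 6 libraries of the transfection alone it was 113 (45 higher, 68 lower). That fit had 1345 genes at an unadjusted p under 0.05, against 1945 in the shared fit. Without 1 library the count of calls ranged from 129 to 503 (60 to 249 higher, 69 to 254 lower). In IC the 5 calls (4 higher, 1 lower) became 62 with no filter (33 higher, 29 lower) and 35 by DESeq2 (22 higher, 13 lower). With 6 libraries they became 0, in a fit that had 790 genes at an unadjusted p under 0.05, against 481 in the shared fit. Without 1 library they ranged from 0 to 17 (0 to 11 higher, 0 to 6 lower). The interaction gave 0 calls in the fit of all 12 libraries, 19 with no filter, 4 by DESeq2 and 0 to 8 without 1 library. With a replicate block the counts were 478 in I200c (201 higher, 277 lower) and 14 in IC (10 higher, 4 lower). The replicate numbers were not taken as a pairing, since only 1 of the 3 same-numbered correlations in I200c was over 0.1, and not every library correlated best with its own number. In IC the same-numbered correlations were 0.0443, 0.0812 and 0.274. Replicate 3 correlated best with its own number in both transfections, so whether the numbers mark a pairing is not known.

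Of the 117 genes named and called in I200c, 117 stayed called with median-ratio scaling, 113 with total counts, 114 with no filter, 115 by DESeq2, 114 with the block, 69 with 6 libraries and 62 to 106 without 1 library. None of the 117 changed sign under any of these. In the fits without 1 library the group left with 2 libraries is assumed to vary like the others. Depth limits genes near 0.313 to 0.461 CPM, where a count of 0 cannot be told from a low level. The cause of the differences between settings was not tested.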

Other observations

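Small RNA and histone genes, named after their values were seen, held further calls. The libraries were primed on poly(A) tails, so levels of transcripts in these classes that lack such a tail are uncertain. Of 25 histone genes tested, 4 were higher and 1 lower with sorafenib in I200c, and 22 had a log2 fold change above 0 (median 0.767, beside 0.00457 over all genes). Without DMSO replicate 2 the calls of H2AC6, H2AC11 and H4C5 were lost (adjusted p = 0.0842, 0.0644 and 0.0565), while those of H1-3 and H2AX were kept. H1-3 had no count in DMSO and 2.66, 5.33 and 0.743 CPM with sorafenib, H4C5 went from 0.615, 0.128 and 0 CPM to 2.66, 6.37 and 3.84 CPM, and H2AC6 from 6.77, 4.98 and 10.3 CPM to 16.3, 17.2 and 16.3 CPM. H2AC11 went from 0.154, 0 and 0 CPM to 1.85, 3.03 and 0.867 CPM. The calls of H1-3, H4C5 and H2AC11, all at low levels, were lost in 1, 4 and 5 of the 6 fits that left out 1 library. H2AX, the histone variant that marks DNA breaks when phosphorylated, fell from 104, 123 and 101 CPM to 49.9, 52.2 and 71.9 CPM. The H2AX call was lost in 2 of these fits and the H2AC6 call in 5 (highest adjusted p = 0.118, without sorafenib replicate 2). Of 16 mitochondrial transfer RNA genes, 1 was called higher and 3 lower, and 3 had a log2 fold change above 0 (median -1.52). MT-TV rose from 10, 15 and 7.32 CPM to 64.9, 39 and 25.5 CPM. MT-TI (log2 -1.11, lost in 3 such fits), MT-TY (-1.81) and MT-TP (-1.82) were called lower, and MT-TP, at 41.9 CPM in DMSO replicate 2 and 17.4 and 8.48 CPM in the others, was not called without that library (adjusted p = 0.143).

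ARRDC3, an arrestin-domain regulator of receptor turnover and a gene outside the lists, rose from 14.8, 5.24 and 10.8 CPM to 44.9, 57.7 and 52.8 CPM. The next 3 genes were named after their values were seen. EFNA1, a ligand of Eph receptors, rose from 52.4, 48.6 and 63.6 CPM to 143, 144 and 157 CPM. CEMIP2, a cell surface hyaluronidase, fell from 377, 234 and 206 CPM to 57.6, 92.4 and 118 CPM. The fibroblast marker PDGFRB, a receptor that sorafenib inhibits, was at 2.46, 6.14 and 2.09 CPM in DMSO and 0.231, 0 and 0.248 CPM with sorafenib, and its call was lost in 5 of the 6 fits that left out 1 library, among them that without DMSO replicate 2 (adjusted p = 0.0898).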
